A study of Danio rerio with 55 samples.

Results

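In zebrafish embryos without Ezh2, 580 regions carried the histone mark H3K4me3 in every mutant replicate but lay outside every region that all wild-type replicates shared. They were 580 of the 10188 H3K4me3 regions found in all 3 mutant replicates at 24 hours post-fertilization (hpf), and the remaining 9608 overlapped a region found in all 3 wild-type replicates (shared regions below). The 580 regions were defined by the H3K4me3 peak lists themselves: within each replicate, neighbouring peaks with a gap below 1 kb were joined, the 3 replicates of each genotype were intersected, and mutant regions with no base in common with any of the 10650 wild-type regions were kept. They are called mutant-only regions here, and their H3K4me3 values are a description without a test, because these values chose them. The name refers to presence in all 3 replicates of a genotype, since only 50 of the 580 regions had no peak in any wild-type replicate. The opposite choice gave 1041 wild-type-only regions, of which 978 had a peak in 2 mutant replicates.

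The MZezh2 mutant embryos lack Ezh2 from both the egg and the zygote. They carry the nonsense allele ezh2 (hu5670) and came from crosses of females and males whose germ line was mutant after germ cell transplantation. Wild-type embryos came from the wild-type germline siblings of these fish, and both genotypes had the same mixed TU/TLF background, whereas the input DNA used to call all peaks came from wild-type embryos of strain AB. Chromatin of whole embryos at 24 hpf, prepared from pools, was immunoprecipitated for H3K4me3 (3 replicates per genotype) and for H3K27me3, Ezh2 and Rnf2 (2 replicates per genotype), and RNA-seq at the same age comprised 6 wild-type and 7 mutant libraries. Whole embryos mix many cell types, so a mark present in few cells and a weak mark in many cells cannot be told apart in these lists.

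H3K4me3, trimethylation of lysine 4 of histone H3, marks the promoters of active genes and of genes kept ready for activation. H3K27me3, trimethylation of lysine 27, is laid down by Polycomb repressive complex 2 (PRC2), whose catalytic subunit is Ezh2, and Rnf2 is the ubiquitin ligase of Polycomb repressive complex 1 (PRC1). In embryos, both complexes keep developmental regulators such as Hox genes silent outside their normal domains, and Trithorax group proteins, which deposit H3K4me3, act against them.

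The H3K4me3 lists held 14667, 12939 and 11487 peaks in wild-type replicates 1, 2 and 3, and 15968, 13996 and 10642 peaks in the mutant replicates. Mutant replicate 3 was therefore the shortest list and mutant replicate 1 the longest, and a region had to reach the shortest list to become a member. Wild-type H3K27me3 was listed at 6918 and 5283 peaks, Ezh2 at 3940 and 2137, and Rnf2 at 19509 and 991. According to the study, Drosophila chromatin was added as a control to the second H3K27me3 and Ezh2 replicates. The replicates of these antibodies were thus not prepared alike. The Rnf2 lists stood furthest apart, so peaks found in both replicates of a list were used for these proteins unless a replicate is named. Such peaks numbered 3548 for H3K27me3, 1000 for Ezh2 and 865 for Rnf2. The lists hold no read counts, so the depth behind a peak is unknown, and the intervals given for shares cover counting error only.

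Most mutant-only regions were not empty in wild-type embryos. A peak was listed in 2 wild-type replicates at 422 of the 580 regions, in 1 replicate at 107 and in none at 50. At the remaining region, on chromosome 21 from 2191524 to 2192708, all 3 wild-type replicates had a peak, but these peaks had no base in common there. Wild-type replicate 1 had a peak at 485 regions (83.6%), replicate 2 at 306 (52.8%) and replicate 3 at 163 (28.1%). The most frequent pattern, at 274 regions, was a peak in wild-type replicates 1 and 2 and none in replicate 3, followed by 135 regions that lacked a peak only in replicate 2. The 1041 wild-type-only regions were tied to a single list as well, because 960 of them (92.2%) lacked a peak only in mutant replicate 3.

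**Figure D1:**
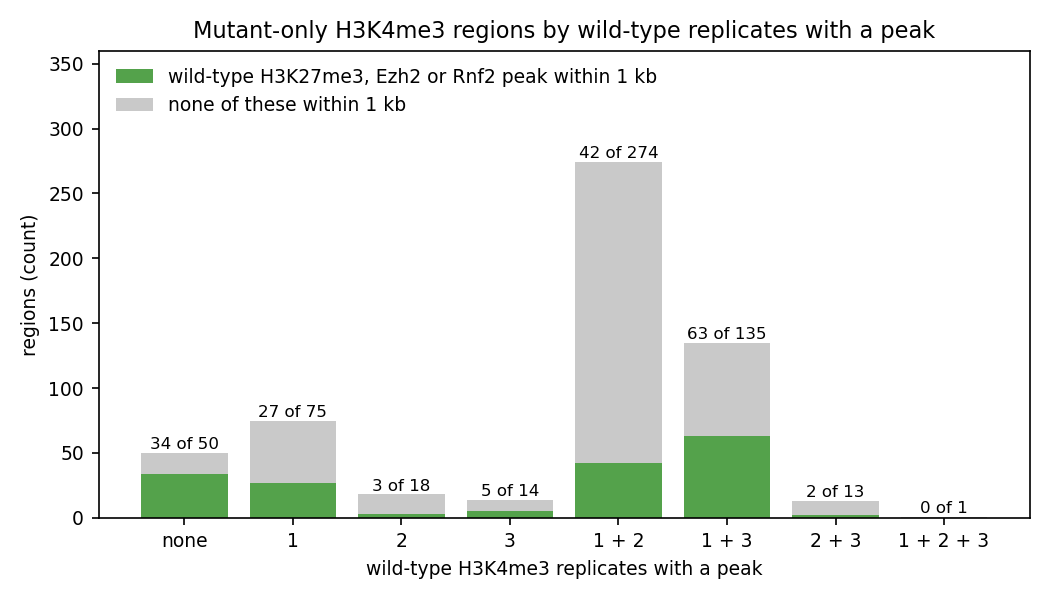
Number of mutant-only H3K4me3 regions (vertical axis) by the wild-type H3K4me3 replicates that listed a peak there (horizontal axis), with regions near a wild-type H3K27me3, Ezh2 or Rnf2 peak in green. The highest bar, 274 regions with a peak in replicates 1 and 2, has 42 regions near such a peak, and the bar of 50 regions without any wild-type peak has 34.

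The number of mutant-only regions depended most on the replicate 3 lists, the shortest of each genotype. Without mutant H3K4me3 replicate 3 it was 2968, without wild-type replicate 3 it was 306, and from replicates 1 and 2 of both genotypes alone it was 1731. Leaving out any of the other lists gave 445 to 644 regions. Without mutant replicate 3, 530 regions had no peak in any of the 3 wild-type replicates. From replicates 1 and 2 of both genotypes, 581 regions had no peak in wild-type replicates 1 and 2. Wild-type replicate 3 was not searched for that count. When 50% of a mutant region had to be covered before it counted as shared, 846 regions remained as mutant-only.

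Peaks at mutant-only regions were lower than those at shared regions in every list. Fold enrichment here is the linear enrichment over the wild-type input that the peak caller gave, taken as the highest value of any peak touching the region. In mutant replicate 1 the median fold enrichment of mutant-only regions was 5.56 (quartiles 4.43 and 6.65), against 10.4 over shared regions. In mutant replicate 2 the medians were 4.25 and 7.66. In mutant replicate 3 they were 3.43 and 4.62, and only 7.95% of shared regions had a lower fold in that list than the median mutant-only region. Near the threshold of the list, which starts at a -log10 q of about 2.02, the replicates differed. A -log10 q under 5 was found at 70 of the 580 regions (12.1%) in mutant replicate 1, at 187 (32.2%) in replicate 2 and at 471 (81.2%) in replicate 3, against 0.187%, 1.07% and 21.7% of the shared regions.

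Where a wild-type replicate did list a peak, it was about as weak in relation to its own list as the mutant peaks were. The median wild-type fold enrichment was 3.89 in replicate 1 (485 regions), 4.73 in replicate 2 (306) and 3.51 in replicate 3 (163), against 6.91, 6.90 and 5.50 over shared regions. To compare lists of different height, each fold was divided by the median of the shared regions in the same list and averaged over the replicates with a peak. On that scale the median was 0.613 in mutants, over all 580 mutant-only regions. It was 0.612 in wild-type embryos, over only the 530 regions with a wild-type peak. Of the 530 regions with at least 1 wild-type peak, the lowest mutant fold exceeded the highest wild-type fold at 62 (11.7%). Over the shared regions it did so at 39 of 9608 (0.406%). Both counts use raw folds from lists of different height, and these lists also chose the regions. These wild-type values leave out the replicates without a peak, for which the lists hold no value.

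**Figure D2:**
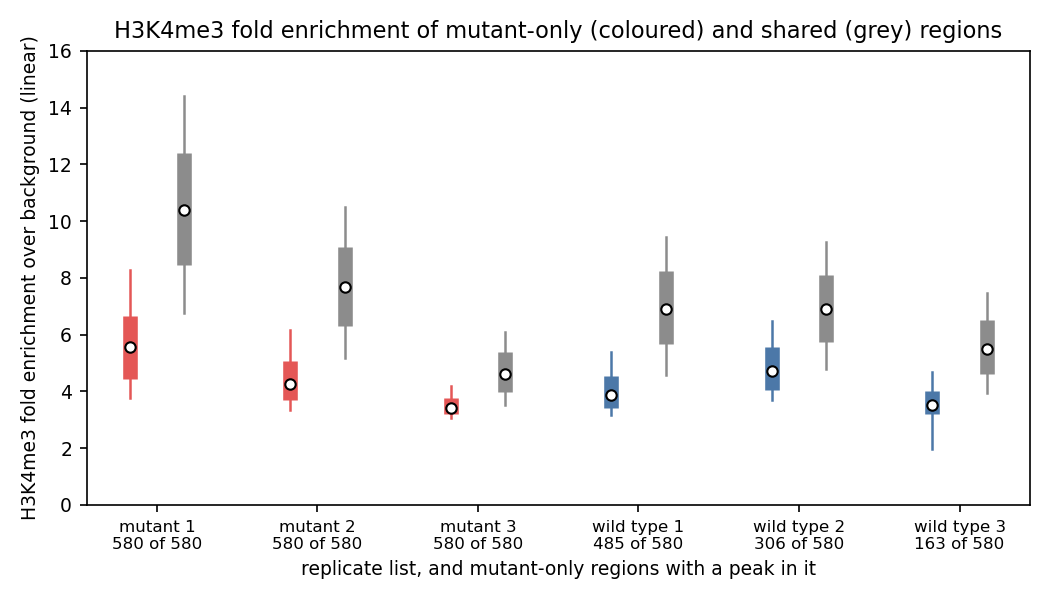
H3K4me3 fold enrichment over input on a linear axis in each of the 6 replicate lists, for mutant-only regions (coloured) and shared regions (grey), with the median as a circle, the quartiles as the ends of a thick bar and the 10th to 90th percentile as a thin line. The coloured medians, from 3.43 to 5.56, lie below the grey medians, from 4.62 to 10.4, in every list.

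Mutant-only regions were also narrow. Their median width was 324 bp, with 247 bp and 478 bp at the quartiles and a range from 26 to 2761 bp, whereas shared regions had a median of 602 bp and wild-type-only regions one of 289 bp. Only 34 mutant-only regions (5.86%) exceeded 1000 bp, against 16.3% of shared regions, and 10 were under 100 bp. The width is that of the stretch common to the 3 mutant replicates, and the merged peaks around it had median widths of 748, 586 and 390 bp in mutant replicates 1, 2 and 3.

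A second readout that did not enter the choice of regions was the Polycomb machinery in wild-type embryos. The study had already reported Ezh2 or H3K27me3 at the majority of the H3K4me3 peaks it found enriched in mutants. Those peaks were chosen by intensity, so the shares given here are of a different set. A wild-type H3K27me3 peak lay within 1 kb of 172 mutant-only regions (29.7%, Wilson 95% confidence interval 26.1 to 33.5%), an Ezh2 peak within 1 kb of 85 (14.7%, 12 to 17.8%) and an Rnf2 peak within 1 kb of 84 (14.5%, 11.9 to 17.6%). Over shared regions these shares were 4.88%, 1.59% and 1.44%. Over wild-type-only regions, which were of similar width, they were 9.61%, 3.65% and 1.54%. Regions where mutant lists of these antibodies also had a peak, described below, were kept in all these shares. The intervals of the mutant-only regions and of both other groups did not overlap for any of the 3 lists, but neighbouring regions are not independent, the groups differ in peak height, and no test was run on these shares.

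The replicate lists of each protein differed in how far they separated the groups. With the H3K27me3 lists taken singly, 34.8% and 31.6% of mutant-only regions had a peak within 1 kb, against 7.57% and 5.38% of shared regions. For Ezh2 the shares were 27.4% and 16.7% against 9.95% and 2.64%. Rnf2 replicate 1, with 19509 peaks, gave 47.2% for mutant-only and 48.4% for shared regions, so this list alone did not separate them. Rnf2 replicate 2 gave 14.8% against 1.46%.

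**Figure D3:**
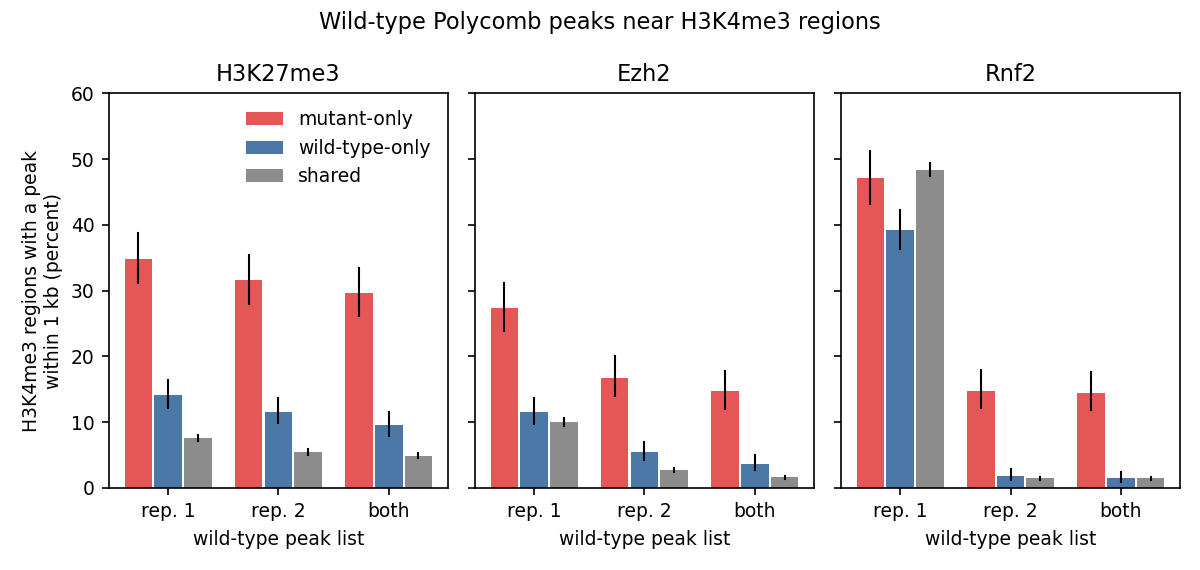
Percent of mutant-only, wild-type-only and shared H3K4me3 regions with a wild-type H3K27me3, Ezh2 or Rnf2 peak within 1 kb (vertical axis), for each wild-type replicate list and for peaks found in both replicates, with Wilson 95% intervals as black lines. The mutant-only bars are the highest in every list except Rnf2 replicate 1, where they reach 47.2% against 48.4% for shared regions.

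Taken as a group, 176 mutant-only regions (30.3%, 26.7 to 34.2%) had at least 1 of the 3 Polycomb peaks within 1 kb, against 5.32% of shared regions and 11.0% of wild-type-only regions. H3K27me3 accounted for 172 of the 176. All 84 regions with Rnf2 and 81 of the 85 with Ezh2 also had H3K27me3. Among these 172 regions, 48.8% also had Rnf2 and 47.1% Ezh2, whereas of the 469 shared regions with H3K27me3 nearby, 27.5% had Rnf2 and 25.2% Ezh2. All 3 proteins were found at 59 mutant-only regions, H3K27me3 with Rnf2 at 25, H3K27me3 with Ezh2 at 22 and H3K27me3 alone at 66. At 44 of the 176 regions, a mutant list of these antibodies also had a peak within 1 kb. These included 11 of the 59, 3 of the 25, all 22 with H3K27me3 and Ezh2, and 5 of the 66.

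The Polycomb peaks were mostly on the regions rather than beside them. Of all mutant-only regions, 158 overlapped a wild-type H3K27me3 peak, 14 more had one closer than 1 kb and 19 had one between 1 and 5 kb away. At 322 regions (55.5%) the nearest such peak was 50 kb or more away. Of the 172 regions near H3K27me3, 128 (74.4%) lay wholly inside the H3K27me3 peak, against 40.5% of the shared regions near H3K27me3. This comparison was not adjusted for width, and all shared regions had a median of 602 bp against 324 bp for mutant-only regions. The H3K27me3 peaks concerned were broad, with a median width of 4692 bp over the 172 regions, against 1380 bp over shared regions. The widest peak near each region was taken. The highest H3K27me3 fold of any peak within 1 kb had a median of 5.70 and 4.90 in wild-type replicates 1 and 2. Over the shared regions near H3K27me3 the medians were 4.24 and 4.09. The widest peaks near the 172 regions were 158 different H3K27me3 peaks. Of these, 148 were matched to 1 region, 8 to 2 and 2 to 4.

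The share near Polycomb peaks was largest where wild-type H3K4me3 was missing from all lists. It was 68.0% (34 of 50) for regions with no wild-type H3K4me3 peak, 32.7% (35 of 107, interval 24.6 to 42.1%) for those with a peak in 1 replicate and 25.4% (107 of 422, interval 21.4 to 29.7%) for those with a peak in 2. Even the last of these exceeded the share in shared regions. Wild-type-only regions showed the same order. A Polycomb peak was near 63.6% (7 of 11) of those without any mutant H3K4me3 peak. It was near 21.2% (11 of 52) of those with a peak in 1 mutant replicate and 9.92% (97 of 978) with a peak in 2. The 7 regions had H3K27me3 in 2 cases, Ezh2 in 5 and Rnf2 in none, whereas 26 of the 34 mutant-only regions had Rnf2.

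The pattern over the wild-type replicates differed between regions with and without Polycomb peaks. Of the 176 regions near a Polycomb peak, 132 had an H3K4me3 peak in wild-type replicate 1, 47 (26.7%) in replicate 2 and 70 (39.8%) in replicate 3. Of the 404 others, 353 had one in replicate 1, 259 (64.1%) in replicate 2 and 93 (23.0%) in replicate 3. Wild-type replicate 2 was thus the list that most often lacked H3K4me3 at the Polycomb-associated regions, and replicate 3 the one that most often lacked it elsewhere. Without wild-type replicate 2, 25.4% of the then 445 mutant-only regions lay near a Polycomb peak, against 5.89% of shared regions, and without wild-type replicate 3 it was 43.8% of 306 regions.

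Polycomb-associated regions were wider but not higher. Their median width was 443 bp, against 296 bp for the other mutant-only regions, and their median fold enrichment in the 3 mutant replicates was 4.50, 3.90 and 3.37, against 5.97, 4.46 and 3.46. Shared regions showed the same contrast, with a median width of 825 bp near a Polycomb peak and 595 bp elsewhere. Their median mutant folds were 6.32, 5.08 and 3.77 near such a peak, against 10.6, 7.75 and 4.68. When regions were split into 3 equal classes by width, 48.5% of the widest class (402 bp or more) lay near a Polycomb peak, against 22.4% of the middle and 20.1% of the narrowest class. By the lowest of the 3 mutant folds the order was opposite, with 38.1% in the lowest class, 31.8% in the middle and 21.1% in the highest. The lowest mutant fold exceeded every wild-type fold at 34 of the 142 Polycomb-associated regions with a wild-type peak (23.9%) and at 28 of the 388 others (7.22%). These are raw folds from lists of different height. On the scale relative to shared regions, mutants had the larger value at 50% of the former and at 48.7% of the latter. That scale leaves out wild-type replicates without a peak. For shared regions these shares were 51.9% near a Polycomb peak and 50.9% elsewhere. Among shared regions, the lowest mutant fold exceeded every wild-type fold at 3.33% near a Polycomb peak and at 0.242% of the others.

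Some mutant-only regions were also listed with the Polycomb antibodies in mutant embryos, which have no Ezh2 protein. At 64 mutant-only regions (11.0%) at least 1 of the 6 mutant H3K27me3, Ezh2 and Rnf2 lists had a peak within 1 kb, and at 34 regions 3 or more did, whereas at least 1 did so at 2.4% of shared and 5.19% of wild-type-only regions. These are single lists, and they were uneven. Mutant Ezh2 had a peak near 0 mutant-only regions in replicate 1 and near 38 in replicate 2. The second replicates of Ezh2 and H3K27me3 had Drosophila chromatin added, and its part in this difference was not tested. All 24 mutant-only regions whose lowest H3K4me3 fold was under 2.5 were among the 64. So were all 22 regions with wild-type H3K27me3 and Ezh2 but no Rnf2, 13 of which were under that fold. None of the 9377 shared regions without a mutant Polycomb peak was under that fold either. Of the 516 regions without any mutant Polycomb peak, 132 (25.6%) lay near a wild-type Polycomb peak, against 4.12% of the corresponding shared regions, and of the 46 among them without a wild-type H3K4me3 peak, 33 (71.7%) did. Peaks called on the input itself, which the study removed, could not be removed here, and their part in these regions was not tested.

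Because the choice of regions used all H3K4me3 lists, it was repeated with 1 replicate number of both genotypes left out, and the left-out lists were then searched. Of 625 regions chosen without replicate 1, 89.9% had a peak in mutant replicate 1 and 81.3% in wild-type replicate 1. Of 503 chosen without replicate 2, 88.3% had one in mutant replicate 2 and 62.4% in wild-type replicate 2. Of 1731 chosen without replicate 3, only 16.9% had one in mutant replicate 3, and 23.9% had one in wild-type replicate 3. The left-out mutant list thus held more of the chosen regions than the left-out wild-type list in replicates 1 and 2, and fewer in replicate 3, where the mutant list was the shorter of the 2. The same order was seen for regions chosen as wild-type-only, with 96.2% in the mutant and 93.6% in the wild-type list of replicate 1, 89.5% and 77.9% for replicate 2, and 15% and 24.1% for replicate 3. Without a split by Polycomb peaks, the order was thus not particular to mutant-only regions.

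Near Polycomb peaks, this gap was wider in replicates 1 and 2. Of the Polycomb-associated regions chosen without replicate 1, 89.5% had a peak in the left-out mutant list and 75.3% in the wild-type list (n = 190). For replicate 2 the values were 88.2% and 37.0% (n = 127), and 65 regions had a peak only in the mutant list against 0 only in the wild-type list. For replicate 3 they were 28.0% and 30.6% (n = 454), with 62 regions only in the mutant and 74 only in the wild-type list. Near Polycomb peaks, the other regions also had more peaks in the mutant list of replicate 2. There, regions chosen as wild-type-only had 81.1% in the mutant and 55.8% in the wild-type list, with 62 only in the mutant and 14 only in the wild-type list, and shared regions had 99.5% and 88.9%, with 63 and 2. In replicate 1 near Polycomb peaks, both groups had fewer peaks in the mutant list. Wild-type-only regions had 83.6% and 88.8% there, and shared regions 98.1% and 99.4%. In replicate 3 the values were 36.9% and 35.7% for wild-type-only and 77.3% and 82.4% for shared regions. Away from Polycomb peaks the pairs for mutant-only regions were 90.1% and 83.9%, 88.3% and 71.0%, and 12.9% and 21.5%. No replicate pair was tested against another, and how deeply each library was sequenced is not known from these lists.

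**Figure D4:**
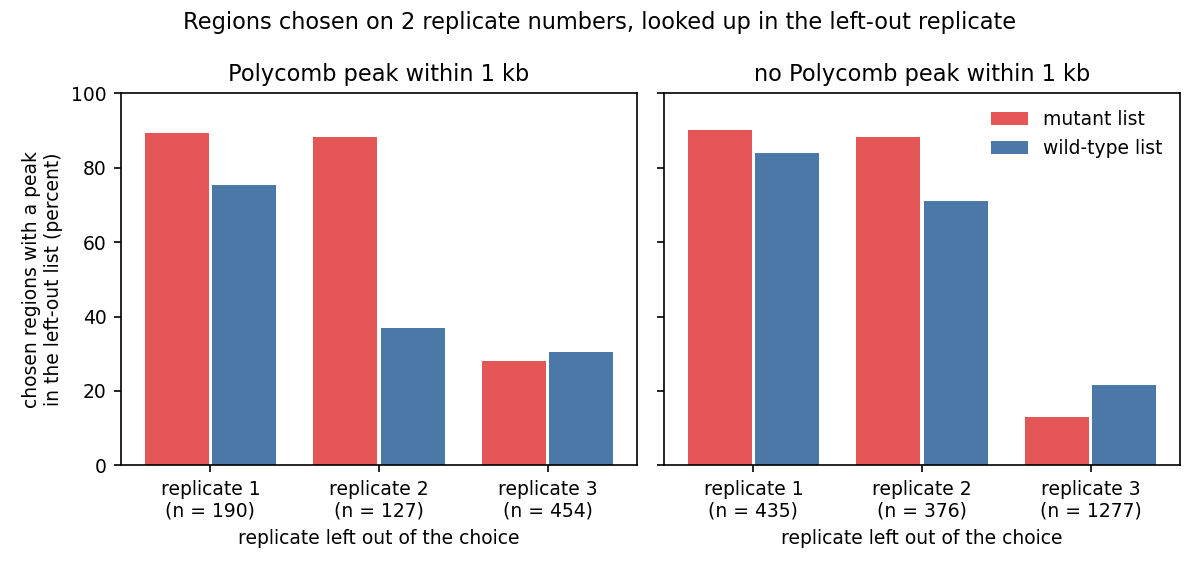
Percent of regions, chosen as mutant-only on the other replicate numbers, that had an H3K4me3 peak in the left-out mutant list (red) and in the left-out wild-type list (blue), for regions with a wild-type Polycomb peak within 1 kb (left) and without (right). The red bars are higher for replicates 1 and 2, most so for replicate 2 near Polycomb peaks (88.2% against 37.0%, where regions chosen as wild-type-only, not drawn, had 81.1% against 55.8%), and the blue bars are higher for replicate 3.

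Among the 50 regions without any wild-type peak, the 34 near Polycomb peaks were 87 to 1884 bp wide (median 410 bp), with a fold enrichment of 3.57 to 7.50 in mutant replicate 1 and 2.98 to 3.93 in mutant replicate 3. All but 1 lay wholly inside wild-type H3K27me3, 26 had Rnf2 and 17 had Ezh2 within 1 kb. The 16 others were 41 to 538 bp wide (median 232 bp), and their fold in mutant replicate 3 ranged from 2.38 to 7.71.

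Of the 10 regions of this class with the highest lowest fold, 7 had wild-type H3K27me3 and 6 had Rnf2. The region that stood highest, on chromosome 24 from 13982945 to 13983153, had a fold enrichment of 7.67, 6.27 and 7.71 in mutant replicates 1, 2 and 3 and no wild-type Polycomb peak within 1 kb. It was followed by a region on an unplaced scaffold (6.67, 5.44 and 4.91), also without such a peak. Both were listed within 1 kb by several mutant Polycomb antibody lists, the first by 4 of 6 and the second by 3. The region after them, on chromosome 22 from 27499339 to 27499621 (7.22, 5.34 and 4.41), had no Polycomb peak within 1 kb in either genotype.

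The next region in that order had all 3 proteins in wild-type embryos. It lay on chromosome 9 from 34832069 to 34832662, with an H3K4me3 fold enrichment of 7.50, 5.93 and 3.93 in the mutants, inside an H3K27me3 peak of 10199 bp (fold 7.59 and 6.30 in wild-type replicates 1 and 2), and Rnf2 reached 13.2 and 8.08 there. A second region of this kind on chromosome 9, from 21256554 to 21256907, had H3K4me3 folds of 6.48, 4.63 and 3.61 inside an H3K27me3 peak of 10744 bp. On chromosome 14, the region from 5370935 to 5371658 (5.91, 4.26 and 3.77) had H3K27me3 and Rnf2 but no Ezh2 peak in both replicates. The nearest shared H3K4me3 regions were 131286, 30117 and 35383 bp away from these 3, and none of the 3 belonged to the same merged peak as a shared region.

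The widest regions of this class all lay in H3K27me3 with Rnf2. The widest, 1884 bp on chromosome 5 from 14701782 to 14703665, had H3K4me3 folds of 4.73, 4.04 and 3.57 inside an H3K27me3 peak of 14849 bp. It was followed by 1420 bp on chromosome 17 from 38295484 to 38296903 (5.94, 4.73 and 3.39), inside 44823 bp of H3K27me3. The third was 1385 bp wide on chromosome 5 from 66980943 to 66982327 (5.05, 4.98 and 3.34). Their widths exceed the 90th percentile of 764 bp over all mutant-only regions, while their folds in mutant replicate 3 lie close to the median of 3.43.

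Regions with the strongest H3K27me3 varied in H3K4me3. The highest lower fold of H3K27me3 over both wild-type replicates, 6.72, belonged to a region on chromosome 8 from 29585175 to 29585502, whose H3K4me3 folds were 4.07, 3.59 and 3.37 without a wild-type peak. The next was the region in the window of tbx5a with tbx3a described below (7.10 and 6.68). Its H3K4me3 folds of 10.7, 8.26 and 5.21 were above the 90th percentile of mutant-only regions in each mutant replicate (8.29, 6.15 and 4.19). A region on chromosome 21 from 45780357 to 45780833 had 8.40 and 6.56, with Rnf2 at 15 and 7.10, and H3K4me3 folds of 6.26, 4.26 and 3.28. Of the 5 regions with the strongest H3K27me3, 4 had no wild-type H3K4me3 peak. The region in the window of tbx5a with tbx3a had one in wild-type replicate 1 only.

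Regions strong in Ezh2 or Rnf2 did not all look alike. The highest lower Ezh2 fold, 4.95 and 7.05 in the 2 replicates, was at a region of 342 bp on chromosome 2 from 22933604 to 22933945, whose H3K27me3 peak was only 435 bp wide, which had an Rnf2 peak in replicate 1 only, and whose H3K4me3 was about equal in mutants (5.34, 5.92 and 3.91) and in wild-type replicates 1 and 2 (5.38 and 5.98). This region was also listed within 1 kb by 5 of the 6 mutant Polycomb antibody lists. The highest lower Rnf2 fold, 14.3 and 8.99, was at a region of 1059 bp on chromosome 1 from 6995875 to 6996933 inside 14558 bp of H3K27me3. Its H3K4me3 folds were 6.27, 4.86 and 3.61 in mutants and 3.32 and 3.20 in wild-type replicates 1 and 3, and replicate 2 had no peak.

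At 220 mutant-only regions (37.9%) no wild-type H3K27me3, Ezh2 or Rnf2 replicate had a peak within 5 kb. Their median folds in the mutant replicates were 6.27, 4.59 and 3.48, and 10 of them had no wild-type H3K4me3 peak, 40 had one in 1 replicate, 169 in 2 and 1 in 3. The region with the highest lowest fold, on chromosome 21 from 15991201 to 15991831, had folds of 8.13, 6.43 and 5.92 in mutants and of 6.37 and 5.35 in wild-type replicates 1 and 2. A region on chromosome 19 from 3917493 to 3917796 had 8.48, 6.30 and 5.18 in mutants and 6.49 and 4.96 in the same wild-type replicates. A pair of neighbours on chromosome 3, from 6149120 to 6149382 and from 6150447 to 6151377, had 7.28, 6.29 and 5.09 and 7.16, 6.30 and 5.70 in mutants. Wild-type replicate 1 listed both neighbours (5.09 and 3.73), and replicate 3 listed the second (5.39). All 5 regions picked by their lowest mutant fold had a peak in 1 or 2 wild-type replicates.

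Regions with a peak in 1 or 2 wild-type replicates were also ranked by lowest mutant fold. Apart from the region in the window of tbx5a with tbx3a, the highest had no wild-type Polycomb peak of both replicates within 1 kb. A region of 195 bp on chromosome 4 from 52808192 to 52808386 had folds of 5.45, 5.92 and 5.65 in mutants and of 4.75 in wild-type replicate 3, and it was listed within 1 kb by 4 of the 6 mutant Polycomb antibody lists. Wild-type H3K27me3 (6.02) and Ezh2 (5.64) were listed within 1 kb of it in replicate 2 only. A region of 239 bp on chromosome 24 from 39749331 to 39749569 had 8.69, 7.75 and 6.25 in mutants and 6.80 and 6.09 in wild-type replicates 1 and 2. It lay 1099 bp from a shared region and was part of the same merged peak in 1 mutant replicate. At both regions the wild-type folds were below those of the mutant replicate of the same number, but lists of different height were compared. On the scale relative to shared regions, the chromosome 4 region had 0.84 in mutants and 0.863 in wild-type embryos. The chromosome 24 region had 1.07 and 0.933.

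At its closest, the border between mutant-only and shared regions was a matter of few bases. The mutant-only region nearest to a wild-type region, on chromosome 14 from 3937163 to 3937413, was 5 bp from it, and the next were 19 and 32 bp away, each with a peak in 2 wild-type replicates. The 3 mutant regions with the smallest overlap counted as shared had 2, 4 and 7 bp in common with a wild-type region. Such cases were rare: 15 mutant-only regions (2.59%) lay under 1 kb from a wild-type region, the median distance was 30295 bp, and 11 regions (1.90%) belonged to the same merged peak as a shared region in at least 1 mutant replicate.

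Mutant-only regions were spread over all 25 chromosomes, from 14 on chromosome 10 to 35 on chromosome 2, with 11 on unplaced scaffolds. They made up 3.89% (chromosome 10) to 8.58% (chromosome 4) of the mutant regions of a chromosome. Of the 32 regions on chromosome 4, only 4 were near a Polycomb peak, against 15 of 35 on chromosome 2 and 10 of 17 on chromosome 9. Most regions were isolated, because 473 had no other mutant-only region within 100 kb.

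There were 6 groups of 3 or more regions with gaps under 100 kb, which held 27 regions, of which 20 were near a Polycomb peak. The largest had 6 regions over 86.0 kb of chromosome 3 (23536653 to 23622699), all with H3K27me3 and 5 with Rnf2, and with H3K4me3 folds of 3.04 to 6.03 in the mutants. Wild-type replicate 1 listed all 6, replicate 3 listed 5 and replicate 2 none. A group of 5 over 126 kb of chromosome 23 (35954186 to 36080109) had the same order, with 4, 3 and 0 regions listed in wild-type replicates 1, 3 and 2.

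Among these groups, 2 had a different make-up. Groups of 5 regions on chromosome 2 (19787442 to 19816347) and of 4 on chromosome 14 (19792972 to 19805517) had H3K4me3 folds of only 1.5 to 2.38, no Rnf2, and a peak in a mutant Polycomb list at every region. By contrast, 4 regions on chromosome 4 (29008096 to 29167197) had folds of 3.30 to 11.5, no Polycomb peak, and a peak in wild-type replicates 1 and 2 throughout.

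At 3 loci of known developmental regulators, the mutant-only regions could be set beside RNA. The hoxab cluster holds Hox genes, which pattern the body axis and, in the case of hoxa13b, the distal fins. tbx5a and its neighbour tbx3a encode T-box transcription factors of heart and pectoral fin, and gsc encodes the homeobox factor goosecoid of the organizer. The hoxab cluster had 2 mutant-only regions, and the windows of tbx5a with tbx3a and of gsc had 1 each. All 4 lay wholly inside wild-type H3K27me3 peaks and had Ezh2 and Rnf2 peaks of both replicates within 1 kb, and mutant H3K27me3 and Ezh2 lists had no peak within 1 kb of any of them. The study names these loci as Polycomb targets, and the chromosome of each window was checked by its wild-type H3K27me3. The wild-type Polycomb peaks at these 4 regions are therefore a description and no independent result.

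The region in the window of tbx5a with tbx3a was the highest of these 4. It covered 1115 bp on chromosome 5 with wild-type Rnf2 at 14.7 and 8.82, Ezh2 at 5.67 and 4.48 and H3K27me3 at 7.10 and 6.68. The only wild-type H3K4me3 peak there, in replicate 1, had a fold enrichment of 3.12 and a -log10 q of 2.42, against a -log10 q of 32.1, 22.1 and 9.24 in the mutants. Rnf2 was also listed within 1 kb in both mutant replicates, at 5.01 and 5.21, making this the only one of the 4 regions with a mutant Polycomb peak. The mutant Rnf2 peaks were 150 and 396 bp wide, with a -log10 q of 4.64 and 3.13. Those in wild-type embryos were 8947 and 8479 bp wide, with a -log10 q of 51 and 12.3. The study reports a loss of Rnf2 at tbx5a in mutants.

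At gsc, the region of 365 bp had -log10 q values of 10.0, 4.68 and 3.14 in mutant replicates 1, 2 and 3, the last of which compares with a lowest value of 2.02 in that list, and no wild-type peak. Wild-type Rnf2 reached 11.9 and 7.96 there. The nearest shared H3K4me3 region was 129944 bp away. In the hoxab cluster, the region of 603 bp without a wild-type peak had -log10 q values of 6.45, 5.18 and 3.45. The second hoxab region, 262 bp from 21102435 to 21102696, had folds of 7.26, 3.81 and 3.47 in mutants and of 3.88 and 3.93 in wild-type replicates 1 and 3, so that its mutant and wild-type folds overlapped. It lay 1231 bp from a shared region and belonged to the same merged peak as that region in mutant replicate 1.

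**Figure D5:**
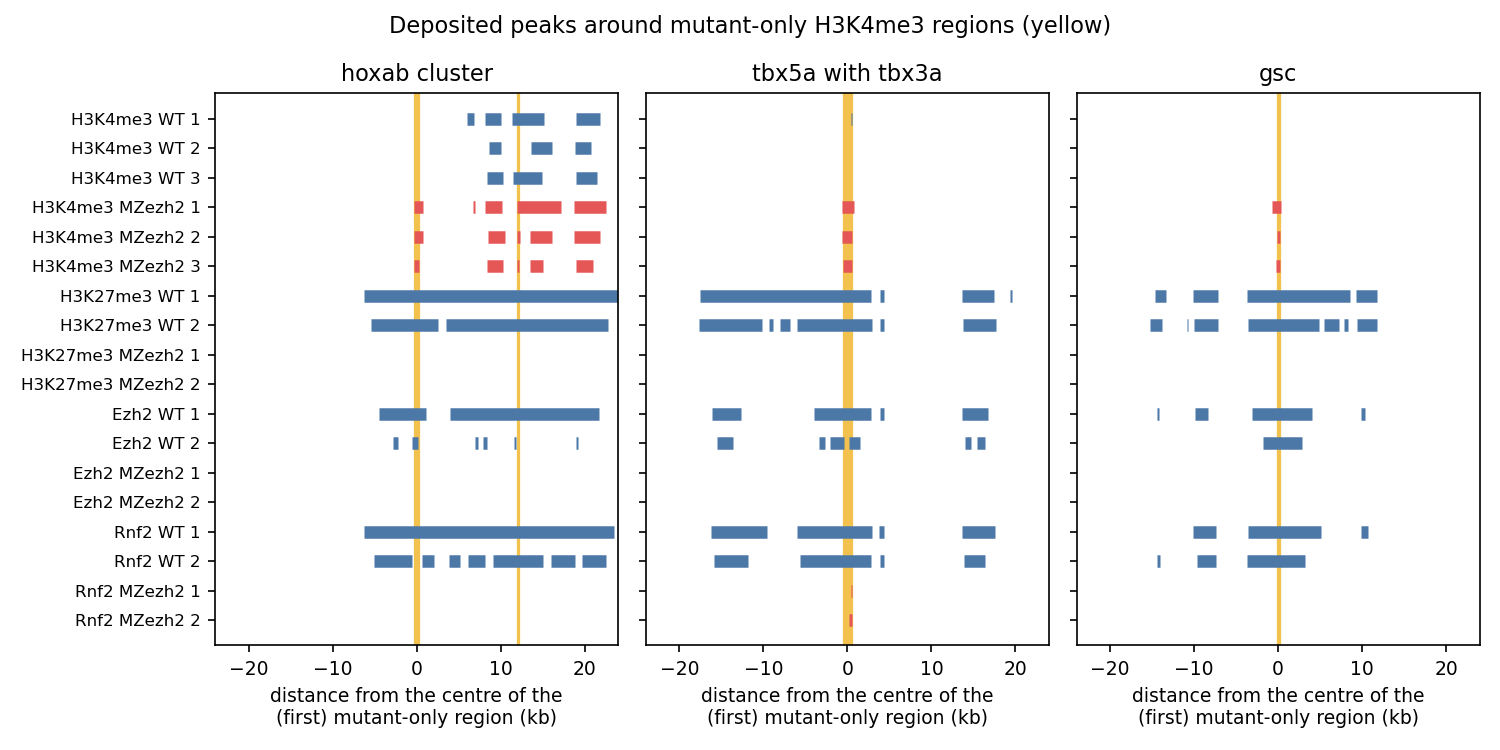
Deposited peaks of every replicate list around the mutant-only regions (yellow) at the hoxab cluster, tbx5a with tbx3a, and gsc, as blue (wild-type, WT) and red (MZezh2 mutant) bars, with the distance from the centre of the first region in kb on the horizontal axis. Each yellow region lies within blue H3K27me3 bars, and the only red Polycomb bars within 1 kb of one are those of Rnf2 at tbx5a with tbx3a.

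RNA at 24 hpf was measured in other embryos and did not enter the choice of regions, although these loci were picked with earlier results known. From these data the study had already reported more H3K4me3 near hoxa13b, tbx5a and gsc, and changed RNA of tbx5a and gsc. Calls among these genes therefore repeat published results, and their number cannot be weighed against the share over all genes. Over 18806 genes tested with edgeR's quasi-likelihood test, 0.298% were higher and 0.144% lower in mutants at an adjusted p under 0.05 (0.441% in either direction). Of hoxa13b, tbx5a, tbx3a and gsc, 2 were higher and none lower. In CPM, the counts of a gene scaled to a common library total, gsc ranged from 0.524 to 1.13 (median 0.828) in the 6 wild-type libraries and from 2.59 to 5.97 (median 5.23) in the 7 mutant libraries. All mutant libraries were above all wild-type libraries, as for 0.489% of the genes tested. The log2 fold change of gsc was 2.51 ± 0.26 (SE; edgeR adjusted p = 0.000227), on raw counts of only 5 to 19 in wild-type libraries.

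The T-box neighbours differed in their values. tbx5a had 4.99 to 8.69 CPM (median 5.35) in wild-type libraries and 16.4 to 28.3 CPM (median 18.9) in mutants, again without overlap, and a log2 fold change of 1.78 ± 0.20 (SE; edgeR adjusted p = 0.000384). tbx3a had 17 to 36.3 CPM (median 20.9) and 20.1 to 42.1 CPM (median 27.9), which overlapped. Its log2 fold change was 0.28 ± 0.22 (SE; edgeR adjusted p = 0.954). The difference between the 2 genes was not tested, and which of them the mutant-only region belongs to was not analysed.

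In the hoxab cluster, hoxa13b had 1.93 to 5.56 CPM (median 3.70) in wild-type libraries and 4.44 to 5.63 CPM (median 5.08) in mutants, with a log2 fold change of 0.48 ± 0.23 (SE; edgeR adjusted p = 0.714). Of 3 further genes of the cluster, which were chosen after their values were seen, hoxa9b was higher in mutants. It had 15.8 to 20.8 CPM (median 17.5) in wild-type and 52.5 to 102 CPM (median 81.0) in mutant libraries, without overlap, and a log2 fold change of 2.1 ± 0.17 (SE; edgeR adjusted p = 1.84e-05). hoxa10b and hoxa2b had log2 fold changes of 0.61 and 0.24 (edgeR adjusted p = 0.255 and 1). Which of these genes a mutant-only region belongs to was not analysed here, and in whole embryos more expressing cells and more RNA per cell cannot be told apart.

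Replicates 1 and 2 of both genotypes were the deepest RNA libraries, with 15422759 to 23394029 counts on genes against 2736282 to 12701781 in the others. According to the study's methods, a pair of libraries of each genotype at this age was made with a different kit, a stranded total RNA kit, and read from one end, but the labels do not say which, and the kit was not a term of the fit. In these 2 pairs alone, tbx5a had a log2 fold change of 1.75 (edgeR adjusted p = 0.0436) and gsc one of 2.52 (adjusted p = 0.0626). In the remaining libraries the values were 1.88 (adjusted p = 0.00238) and 2.57 (adjusted p = 0.0238).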

How the data were processed

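ChIP-seq and RNA-seq files of wild-type and MZezh2 mutant zebrafish embryos at 24 hpf were used. For ChIP-seq, the authors aligned reads to GRCz10 with BWA, removed duplicate and multimapping reads, and called peaks with MACS2 2.1.1 in each replicate against wild-type input. The deposited lists give each peak with a score, a fold enrichment (a linear ratio over input) and a -log10 q value, are neither merged nor intersected, and share no threshold across antibodies, since the lowest -log10 q was 1.01 for Ezh2 and about 2.02 for H3K4me3. Peaks called on input were not removed here. For RNA-seq, the deposited counts are raw unstranded counts per gene from STAR. The submitters' processing notes name BWA 0.7.15 and STAR 2.5.2b, and the study's methods give other versions of both.

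Regions were built in Python 3.11.15 as described in the results, checked against bedtools 2.31.1, and tested on simulated peaks. Positions are 1-based on GRCz10. A share's interval is the Wilson interval at 95%. The members, lists, loci and tests were chosen with earlier results of these data known. The regions named in the text follow a rule: among regions without a wild-type peak, the 10 highest by lowest mutant fold and the 5 widest; the 2 highest with a peak in 1, 2 or 3 wild-type replicates; the 5, 3 and 3 with the strongest H3K27me3, Ezh2 and Rnf2; the 5 highest without Polycomb peaks within 5 kb; the 3 nearest to the threshold on either side; and all at the hoxab cluster, tbx5a with tbx3a, and gsc. Windows for these loci follow the study's browser view on GRCz10, and in each the named chromosome had the most wild-type H3K27me3. The fold limit of 2.5, groups of regions, the split by mutant Polycomb lists and the left-out replicates were chosen after seeing the data.

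RNA counts (2736282 to 23394029 on genes per library; 36.3 to 69.0% of reads fell outside unique gene assignment and were left out) were tested with edgeR 4.0.16 in R 4.3.3: TMM, filterByExpr, genotype as the only term, robust quasi-likelihood F test (two-sided), Benjamini-Hochberg adjustment over all genes tested. DESeq2 1.42.0 was an alternative. The test was tried on simulated counts. Labels do not say which libraries came from separate clutches, so p-values measure the spread between these libraries. tbx5a, tbx3a and gsc are listed as TBX5, TBX3 and GSC in the gene table, and the first 2 were matched through synonyms in RefSeq GRCz12tu. No genome or annotation of GRCz10 was used, so no sequences are shown and no other gene was joined to a region.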

Additional observations from a re-analysis of the deposited data

How the results depend on the processing

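Shares near Polycomb peaks were larger for mutant-only than for shared regions under all 24 settings, by 1.07 to 7.83 times. At the lowest ratios, 1.07 and 1.11, the groups were hardly separated. These came without wild-type Rnf2 replicate 2 and with Polycomb peaks of either replicate. Leaving out 1 list gave 306 to 2968 regions, of which 64 to 530 had no peak in the wild-type lists that were kept. Median widths were 315 to 383 bp, and median lowest folds 3.37 to 3.94. Shares near Polycomb peaks were 19.7 to 52.1% of mutant-only and 5.33 to 48.9% of shared regions. The highest pair (52.1 and 48.9%) came without wild-type Rnf2 replicate 2, which leaves the long replicate 1 list. With Polycomb peaks of either replicate the shares were 56.6 and 51.0%. With peaks of a score above the list median they were 2.43 and 0.877%, with 907 regions, a median width of 581 bp and a median lowest fold of 4.96. That setting also removed the lower-scored peaks from the H3K27me3, Ezh2 and Rnf2 lists. From replicates 1 and 2 of both genotypes, 1731 regions, 581 without a peak in wild-type replicates 1 and 2, had shares of 26.2 and 6.14%. Without regions near mutant Polycomb peaks the shares were 25.6 and 4.12%. For shared regions alone, the share moved to 4.55% with 50% in common, 4.40% at a -log10 q of at least 3, 4.52% at 0 bp, 7.26% at 5 kb and 4.88% for H3K27me3 alone.

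The number of called genes among hoxa13b, tbx5a, tbx3a and gsc was 2 without any 1 library (2 to 2), with DESeq2, without a filter and with replicate number as a block, and 1 in replicates 1 and 2 alone. With the replicate block, 170 genes were called in all, against 83, and with DESeq2 252. With the block, over replicates 1 to 6, edgeR adjusted p was 0.315 for hoxa13b, 0.232 for tbx3a, 0.000124 for tbx5a and 0.00235 for gsc. Deviations of same-numbered libraries correlated at 0.42 to 0.77 for 5 of the 6 numbers and at -0.02 for number 4. In 2 of 6 numbers both libraries correlated best with each other. The labels give no shared batch for a number, so the main fit did not take the numbers as pairs, although most correlations were positive. The limits on these results are list length, the missing depth per peak, the input peaks left in, and 2 lists per Polycomb protein.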
